A study of Homo sapiens with 8 samples.

Results

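The miRNAs examined here, 8 mature names in all, are assigned to precursors that mature without cleavage by Drosha: hsa-miR-320a, hsa-miR-320b, hsa-miR-320c, hsa-miR-320d, hsa-miR-484, hsa-miR-877-5p, hsa-miR-877-3p and hsa-miR-1226-3p. The 8 members were taken by name from a small RNA-seq table of 2588 miRNA names in 2813 entries, and entries that share a name were summed, so that 11 entries gave the 8 members. The table covers parental, untreated cells of 4 human cancer cell lines: ES-2 (ovarian cancer), MV-3 (melanoma), Huh-7 (hepatocellular carcinoma) and A-549 (lung adenocarcinoma). Cells grew in DMEM with serum and were harvested 48 hours after seeding, and 2 libraries were made per line, which gives 8 in all. The study calls the libraries biological replicates, and the p-values measure only the spread between these samples. The question asked of the data was how the levels of the 8 members compare between the lines.

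Most miRNA hairpins are cut out of a long primary transcript by the nuclear RNase Drosha and its partner DGCR8, exported to the cytoplasm and trimmed by Dicer. Some hairpins take other routes. In the capped class, to which miR-320a and miR-484 belong, RNA polymerase II starts at or close to the 5′ end of the hairpin, so the short precursor carries a 7-methylguanosine cap and needs no Drosha cut. Mirtrons such as miR-877 and miR-1226 are short introns that the spliceosome releases, which fold into a hairpin after debranching and enter at the Dicer step. Whether the libraries' reads came from these routes was not measured: the table holds mature miRNA only, and no line was depleted of Drosha in this experiment.

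The mature sequences show how the members are related and where the splice sites left their mark. They were taken from RefSeq on GRCh38.p14, where 7 of the 8 members had an entry, and are written 5′ to 3′ with the seed (bases 2 to 8) in capitals. The member without an entry was miR-320a, so its bases and seed were not compared here. MiR-320b to d are shown because they differ only at the 3′ end, and the mirtron arms because their ends are intron ends.
miR-320b: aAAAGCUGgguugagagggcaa
miR-320c: aAAAGCUGgguugagagggu
miR-320d: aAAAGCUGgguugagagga
miR-484: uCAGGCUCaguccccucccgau
miR-877-5p: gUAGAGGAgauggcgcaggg
miR-877-3p: uCCUCUUCucccuccucccag
miR-1226-3p: uCACCAGCccuguguucccuag

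The seed AAAGCUG was common to miR-320b, miR-320c and miR-320d, which had the same bases over their leading 18 positions. Among the mature sequences in RefSeq, which lacked that of miR-320a, the only other with this seed was miR-4429. The seed of miR-484, CAGGCUC, occurred also in miR-3155a and miR-3155b, while the seeds of the 3 mirtron arms occurred in no other mature miRNA of the table. Sequencing reads trimmed within the shared 18 bases cannot be assigned to a single miR-320 gene, and how reads with several matches were counted is not given in the sources used here. Values of single miR-320 members are therefore uncertain. The mirtron arms carried the bases of splice sites: miR-877-5p began with GU, as 5.56% of 809 5p names did, and miR-877-3p and miR-1226-3p ended with AG, as 22.6% of 822 3p names did. Pyrimidines made up 90.5% of miR-877-3p, the arm at the 3′ end of its intron, where polypyrimidine tracts lie. They made up 68.2% of miR-1226-3p, also at the 3′ end of its intron, and 68.2% of miR-484, which is no mirtron.

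On GRCh38, the MIR877 hairpin (chromosome 6, 30584332 to 30584417, plus strand) coincided base for base with an intron of 86 bases in ABCF1, which encodes an ATP-binding cassette protein of translation. MIR1226 (chromosome 3, 47849555 to 47849629, plus strand) coincided with an intron of 75 bases in DHX30, which encodes an RNA helicase. Of 1563 human hairpins placed on the annotation, 23 (1.47%) equalled an intron in this way. MIR484 (chromosome 16, 15643294 to 15643372, plus strand) lay in an exon of NDE1, a gene for a centrosomal protein, and its hairpin began 27 bases downstream of an annotated transcript start. A transcript start within 50 bases upstream was found for 36 of the hairpins (2.303%). MIR320A (chromosome 8, 22244966 to 22245037, minus strand) had no annotated start of its own strand close by, the nearest being 12936 bases away, while POLR3D started 96 bases from it on the opposite strand. The other miR-320 names each have a pair of loci, those of miR-320b on chromosome 1, of miR-320c on chromosome 18 and of miR-320d on chromosomes 13 and X, and of these only MIR320B2 lay within an annotated gene of its strand, in an intron of NVL. These names are grouped with miR-320a as its family, and no annotated transcript start lay within 50 bases upstream of their hairpins.

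**Figure D1:**
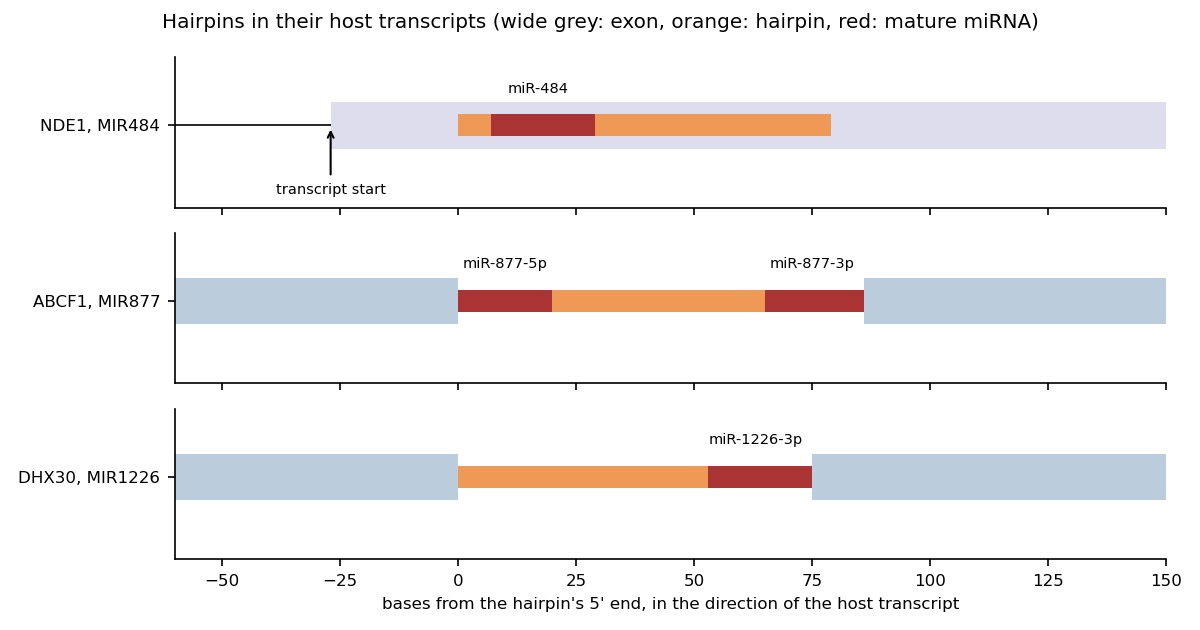
Hairpins of MIR484, MIR877 and MIR1226 in their host transcripts, drawn to scale in bases from the 5′ end of each hairpin. The MIR877 and MIR1226 hairpins fill the whole gap of 86 and 75 bases between 2 exons and their mature arms end at the exon borders, whereas MIR484 lies within an exon that starts 27 bases before it.

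The libraries held 1173902 to 2670030 miRNA reads, recovered from the deposited values, which were whole multiples of the value of 1 read. Levels are given as normalised CPM, that is counts per 1000000 reads after TMM scaling, which corrects for a few abundant miRNAs taking a large part of the reads, or as library CPM, which has no such correction. The choice matters here, because the TMM factors ran from 0.593 and 0.608 in A-549 over 0.848 to 1.18 in ES-2 and MV-3 to 1.63 and 1.70 in Huh-7. Dropping them moved the median log2 difference of all miRNAs by 0.87 in Huh-7 against ES-2 and by -1.33 in A-549 against Huh-7, the extremes of the 6 pairs of lines. As a check of the labels, miR-122-5p, the miRNA of hepatocytes, made up 13.3% and 14.7% of reads in the Huh-7 libraries and no more than 57 reads in any other. Limits for undetected miRNAs are set at 3 reads, which is 0.845 to 2.45 normalised CPM depending on the library, and intervals and limits cover counting error only.

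The members differed widely in abundance. MiR-320a was among the abundant miRNAs of each line, ranking 11 in Huh-7, 28 in ES-2, 29 in MV-3 and 30 in A-549 by mean library CPM. MiR-484 ranked 85 in MV-3, 87 in ES-2, 118 in A-549 and 146 in Huh-7, and miR-320b between 120 and 145. MiR-1226-3p ranked 173 in Huh-7 and 385 in A-549, and miR-877-5p between 271 and 412. Over the 8 libraries the members had 83506 reads (miR-320a), 4642 (miR-484), 2757 (miR-320b), 868 (miR-320c), 711 (miR-1226-3p), 392 (miR-320d), 184 (miR-877-5p) and 7 (miR-877-3p). Together they made up 1.24% ± 0.0203 of reads in Huh-7, 0.545% ± 0.000467 in MV-3, 0.380% ± 0.00758 in ES-2 and 0.323% ± 0.0606 in A-549 (SD, n = 2). This share differed between the lines by an exact permutation test over all partitions of the libraries into pairs (p = 0.00952, the smallest it can give; adjusted p = 0.0238 over 5 tests). On normalised CPM the factor between the highest and the lowest line fell from 3.83 to 1.67, the lowest line became ES-2 in place of A-549, and the test did not pass (exact permutation p = 0.0571).

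**Figure D2:**
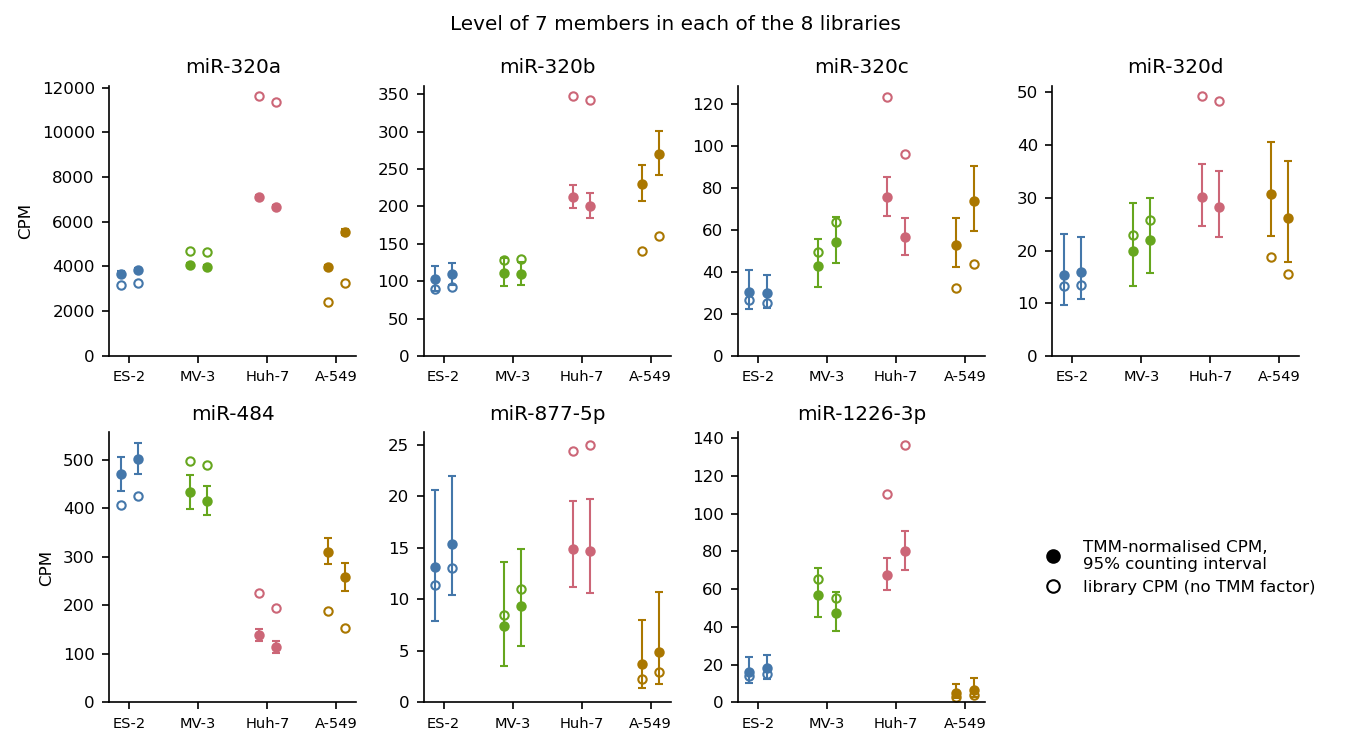
Level of 7 members in each library, by line. Filled points are normalised CPM with their 95% exact Poisson interval, open circles library CPM, each axis starting at 0; miR-877-3p, at 3 reads or fewer, is left out. MiR-484 was lowest in Huh-7 on the normalised scale and in A-549 on the library scale, whereas miR-1226-3p was lowest in A-549 on both.

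The main product of its family, hsa-miR-320a, had 3681 and 3855 normalised CPM in ES-2 (replicates 1 and 2, the order kept throughout) and 4063 and 3969 in MV-3. It had 7108 and 6670 in Huh-7 and 3969 and 5524 in A-549. Both Huh-7 libraries were above all others, and the A-549 libraries lay farther apart than any other pair. By limma with Benjamini-Hochberg adjustment over 528 miRNAs, miR-320a was 0.87 ± 0.15 (SE) higher in Huh-7 than in ES-2 on the log2(normalised CPM + 1) scale (adjusted p = 0.00224) and 0.78 higher than in MV-3 (adjusted p = 0.00392). Either call was lost when any library of the lines compared was left out (adjusted p between 0.0171 and 0.0495 by limma), with the difference between 0.73 and 0.92, and the call against MV-3 also without either ES-2 library (limma adjusted p = 0.0163 and 0.0132). By limma, A-549 did not pass the threshold of 0.01 against ES-2 (0.31, 95% interval -0.04 to 0.67), MV-3 (0.22, -0.13 to 0.58) or Huh-7 (-0.56, -0.91 to -0.20; adjusted p = 0.0148), while edgeR on recovered reads called the difference from Huh-7 (-0.54, adjusted p = 0.00786). Without A-549 replicate 1 the differences from ES-2 and MV-3 were 0.55 and 0.46 and passed by limma (adjusted p = 0.00361 and 0.00647), and without replicate 2 that from Huh-7 was -0.79 and passed (limma adjusted p = 9.49e-04). On library size alone the A-549 differences from ES-2 and MV-3 turned to -0.20 and -0.73 and that from Huh-7 was -2.03.

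The level of hsa-miR-320b was 103 and 109 normalised CPM in ES-2, 111 and 109.8 in MV-3, 213 and 200.5 in Huh-7 and 230.2 and 269.9 in A-549. The 4 libraries of Huh-7 and A-549 did not overlap with the 4 of ES-2 and MV-3. By limma with Benjamini-Hochberg adjustment, the log2 difference from ES-2 was 0.96 ± 0.12 in Huh-7 (adjusted p = 6.11e-04) and 1.23 ± 0.12 in A-549 (adjusted p = 2.37e-04). Against MV-3 it was 0.90 in Huh-7 (limma adjusted p = 8.77e-04, and 0.0118 with only the higher entry of each name) and 1.17 in A-549 (limma adjusted p = 3.14e-04), the latter falling to 0.22 with no call on library size alone (limma adjusted p = 0.147). A-549 against Huh-7 gave 0.27 (95% interval -0.03 to 0.57), which turned to -1.20 and was called on library size alone (limma adjusted p = 1.13e-04), so the order of these lines depends on the scaling.

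The level of hsa-miR-320c was 30.5 and 29.8 normalised CPM in ES-2, 42.9 and 54.3 in MV-3, 75.5 and 56.4 in Huh-7 and 52.9 and 73.6 in A-549. That of hsa-miR-320d was 15.3 and 15.9 in ES-2, 20.0 and 22.0 in MV-3, 30.1 and 28.3 in Huh-7 and 30.8 and 26.2 in A-549. Both had their lowest libraries in ES-2, and neither passed the threshold in any pair of lines by limma with TMM scaling. The log2 difference of Huh-7 from ES-2 was 1.09 (95% interval 0.44 to 1.73; limma adjusted p = 0.0117) for miR-320c and 0.87 (0.22 to 1.51; limma adjusted p = 0.0300) for miR-320d. On library size alone both were called in that pair, at 2.03 and 1.79, and in A-549 against Huh-7, at -1.51 and -1.46 (limma adjusted p = 0.00180 and 0.00252). MiR-320c in A-549 against ES-2 gave 1.03 (95% interval 0.38 to 1.67; limma adjusted p = 0.0174), and passed at 1.13 with RLE factors (limma adjusted p = 0.00924) and at 1.17 with DESeq2 (adjusted p = 0.00845).

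Within the family the proportions can be read without any scaling between libraries, but they rest on the uncertain assignment of reads to single members. MiR-320a made up 96.1% ± 0.0170 of miR-320a to d reads in ES-2, 95.8% ± 0.133 in Huh-7, 95.7% ± 0.263 in MV-3 and 93.2% ± 0.748 in A-549 (SD, n = 2). The lower share in A-549 went with miR-320b, at 5.38% and 4.58% of the family there against 2.62% to 2.88% in the other 6 libraries. The exact permutation test of miR-320a's share over the lines gave p = 0.0381 (adjusted p = 0.0476), and p = 0.143 with only the higher entry of each name kept. Leaving out either ES-2 library also took this test past 0.05 (exact permutation p = 0.0571 without replicate 1 and 0.0667 without replicate 2). MiR-320c made up 0.770% to 1.24% and miR-320d 0.398% to 0.581% of the family in the means of the lines. The paired loci of miR-320b took 51.0% and 49.0% of its 2757 reads, those of miR-320c 47.0% and 53.0% of 868, and those of miR-320d 55.4% (chromosome 13) and 44.6% (chromosome X) of 392. The loci of a name give the same mature sequence, so these near-even splits say nothing of which locus was transcribed. MiR-320e, the remaining family member, had 1 to 7 reads per library.

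Among the capped members, miR-484 of the NDE1 start was lowest where miR-320a was highest on the normalised scale. The level of hsa-miR-484 was 470.0 and 502 normalised CPM in ES-2, 433 and 415 in MV-3, 138 and 114 in Huh-7 and 311 and 258 in A-549. No library of Huh-7 or A-549 reached those of ES-2 and MV-3, and the Huh-7 libraries were lowest. By limma with Benjamini-Hochberg adjustment, Huh-7 was lower by a log2 difference of -1.94 ± 0.14 than ES-2 (adjusted p = 3.44e-05) and of -1.75 ± 0.14 than MV-3 (adjusted p = 6.41e-05). Both calls held in each of 19 alternatives, with ranges of -2.08 to -0.99 and -1.88 to -1.23. A-549 was lower than ES-2 by a log2 difference of -0.78 ± 0.14 (limma adjusted p = 0.00334), a call that was lost without either ES-2 library, either MV-3 library or A-549 replicate 2 (limma adjusted p between 0.0108 and 0.0279). Against MV-3 the A-549 difference of -0.58 missed the threshold (95% interval -0.92 to -0.25; limma adjusted p = 0.0124). A-549 was above Huh-7 by 1.17 ± 0.14 (limma adjusted p = 3.98e-04), and this turned to -0.30 with no call on library size alone (limma adjusted p = 0.0777), where the median of all miRNAs shifted by -1.33. MV-3 and ES-2 did not differ by the threshold (-0.20, 95% interval -0.53 to 0.14).

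**Figure D3:**
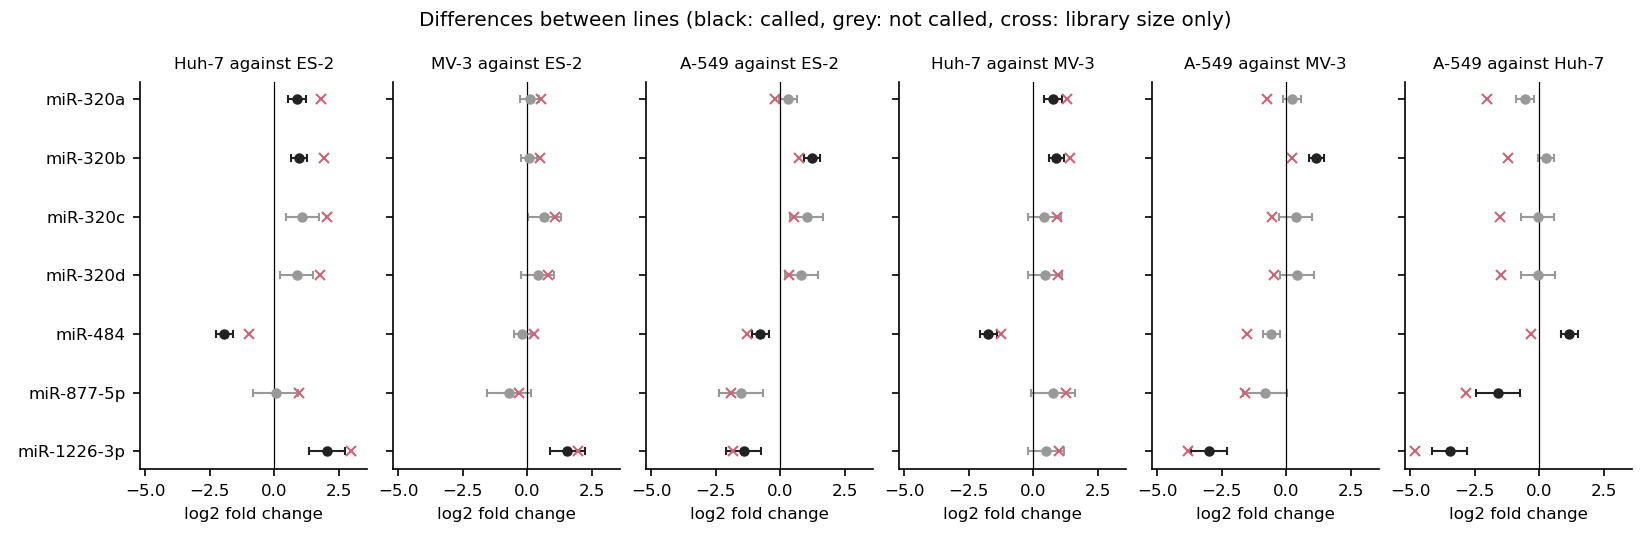
Log2 difference of 7 members in the 6 pairs of lines with 95% intervals from limma (points; black where called at an adjusted p below 0.01, grey where not), and the difference on library size alone (crosses). MiR-484 stood on the negative side in Huh-7 against ES-2 and MV-3 under both scalings, whereas in A-549 against Huh-7 it was positive with TMM and negative without.

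The ratio of miR-320 to miR-484 reads sets the miR-320 family against miR-484 within each library. There were 8.15 and 7.98 miR-320a to d reads per miR-484 read in ES-2, 9.78 and 10.0 in MV-3, 53.8 and 60.8 in Huh-7 and 13.8 and 22.9 in A-549. The lines did not overlap, and the geometric mean in Huh-7 was 7.09 times that in ES-2. The exact permutation test gave p = 0.00952, the smallest it allows (adjusted p = 0.0238), and the factor stayed between 6.67 and 7.54 when single libraries were left out. The share of all miRNA reads that fell on miR-320a to d was 1.20% ± 0.01995 in Huh-7, 0.488% ± 0.000760 in MV-3, 0.336% ± 0.00603 in ES-2 and 0.305% ± 0.0630 in A-549 (exact permutation p = 0.0286, adjusted p = 0.0476), with the ES-2 libraries between those of A-549. That share was 3.93 times higher in Huh-7 than in A-549 by reads, and after TMM scaling the family was 1.84 times higher in Huh-7 than in ES-2, then the lowest line.

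**Figure D4:**
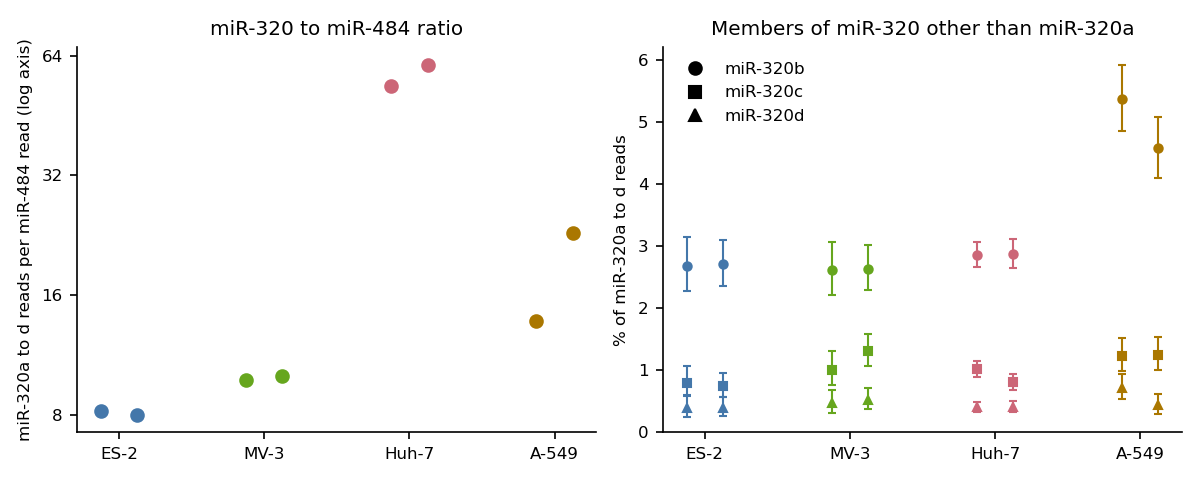
Left, miR-320a to d reads per miR-484 read in each library on a log axis, where the 2 Huh-7 libraries (53.8 and 60.8) stand above all others. Right, the percent of miR-320a to d reads from miR-320b, miR-320c and miR-320d with 95% exact binomial intervals, where miR-320b in the 2 A-549 libraries (5.38% and 4.58%) lies above the other 6.

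Among the mirtrons, miR-1226-3p of the DHX30 intron varied most. The level of hsa-miR-1226-3p was 15.97 and 18.0 normalised CPM in ES-2 (23 and 35 reads), 57.0 and 47.2 in MV-3 (77 and 86 reads), 67.6 and 79.9 in Huh-7 (240 and 234 reads) and 4.92 and 6.54 in A-549 (8 reads in each). The lines did not overlap, in the order Huh-7, MV-3, ES-2, A-549, which was the same on library CPM, although Huh-7 and MV-3 did not differ by the threshold (0.49, 95% interval -0.20 to 1.19). By limma with Benjamini-Hochberg adjustment, A-549 was lower by a log2 difference of -3.48 ± 0.29 than Huh-7 (adjusted p = 7.02e-05) and of -2.98 ± 0.29 than MV-3 (adjusted p = 2.16e-04), and both calls held in each of 19 alternatives. Huh-7 was above ES-2 by 2.05 (limma adjusted p = 8.92e-04), a call that was lost without Huh-7 replicate 2 (limma adjusted p = 0.0102). MV-3 was above ES-2 by 1.56 (limma adjusted p = 0.00590) and A-549 below ES-2 by -1.42 (limma adjusted p = 0.00582). Of these 2 calls, the former was lost without any library of ES-2, MV-3 or Huh-7 and the latter without any of ES-2 or Huh-7 or without A-549 replicate 1, with differences of 1.43 to 1.69 and -1.50 to -1.25 in those fits. Both were also lost with only the lines compared in the fit and with the replicate block (limma adjusted p = 0.0128 and 0.0123), and the latter with RLE factors (limma adjusted p = 0.0103) and DESeq2 (adjusted p = 0.0227). The opposite arm, miR-1226-5p, had 23 reads in all, so the 3p arm held 96.9% of the 734 reads of this hairpin (95% exact binomial interval 95.3% to 98.0%).

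From the ABCF1 intron, hsa-miR-877-5p had 13.2 and 15.4 normalised CPM in ES-2, 7.40 and 9.33 in MV-3, 14.9 and 14.7 in Huh-7 and 3.69 and 4.91 in A-549. These rest on 6 to 53 reads per library, with 6 in each A-549 library. The A-549 libraries were lowest and did not overlap with the others, and ES-2 and Huh-7 overlapped. A-549 against Huh-7 was the only pair called (-1.59 ± 0.35; limma adjusted p = 0.00752), and the call was lost in 11 of 19 alternatives, among them edgeR (adjusted p = 0.0150) and DESeq2 (adjusted p = 0.0799) on reads and the omission of either Huh-7 library, either A-549 library or ES-2 replicate 2. A-549 against ES-2 gave -1.54 (95% interval -2.39 to -0.68; limma adjusted p = 0.0108). For hsa-miR-877-3p there was 1 read in each ES-2 and each A-549 library, 3 and 0 in Huh-7 and none in MV-3. It was at or under the limit of 3 reads everywhere and was not tested. The 5p arm thus held 184 of 191 miR-877 reads (96.3%, 95% exact binomial interval 92.6% to 98.5%). The exact permutation test of its share over the lines gave p = 0.0857, and passed 0.05 without either Huh-7 library. In each A-549 library the share rests on 6 of 7 reads, 85.7% (95% exact binomial interval 42.1% to 99.6%). The MV-3 libraries stood at 100%, on 10 and 17 reads. These few reads cannot settle whether the share differs between lines. The hairpins of both mirtrons were read almost wholly from a single arm, the 5p arm in miR-877 and the 3p arm in miR-1226. Reads of miR-1226-3p per read of miR-877-5p were 1.21 and 1.17 in ES-2, 7.70 and 5.06 in MV-3, 4.53 and 5.44 in Huh-7 and 1.33 in both A-549 libraries, a ratio that was chosen after its values were seen.

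The members were then set against all miRNAs tested. Over the 4 lines jointly, 4 of the 7 members tested passed the limma F test (miR-320a, miR-320b, miR-484 and miR-1226-3p), where 68.2% of the 528 miRNAs did. For miR-320a this joint call was lost without any single library of ES-2, MV-3 or Huh-7. It was also lost in all 8 libraries with RLE factors (limma adjusted p = 0.0110) and with no expression filter (limma adjusted p = 0.0103). The pairs share lines and are not independent. In Huh-7 against ES-2, 4 of 7 were called where 49.2% of all miRNAs were, and in MV-3 against ES-2 the count was 1 of 7 beside 25.8%. In A-549 against ES-2 it was 3 of 7 beside 41.3%, and in Huh-7 against MV-3 it was 3 of 7 beside 47.0%. In A-549 against MV-3 it was 2 of 7 beside 39.6%, and in A-549 against Huh-7 it was 3 of 7 beside 52.3%. With 7 members none of these counts stands clear of the background. The distance between the highest and the lowest line had a median of 1.23 on the log2 scale over the 7 members and of 3.09 over all 528. MiR-320d, miR-320a, miR-320c and miR-320b had 46, 47, 64 and 78 of the 528 miRNAs below them in this distance, miR-877-5p 111, miR-484 159 and miR-1226-3p 296. MiR-320a to d are a single family and may share reads, so the median of the members leans on that family. Between their highest and lowest line the factors were 1.83 to 2.36 on normalised CPM and 3.65 to 4.24 on library CPM. The distances of all miRNAs were not computed on library CPM.

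**Figure D5:**
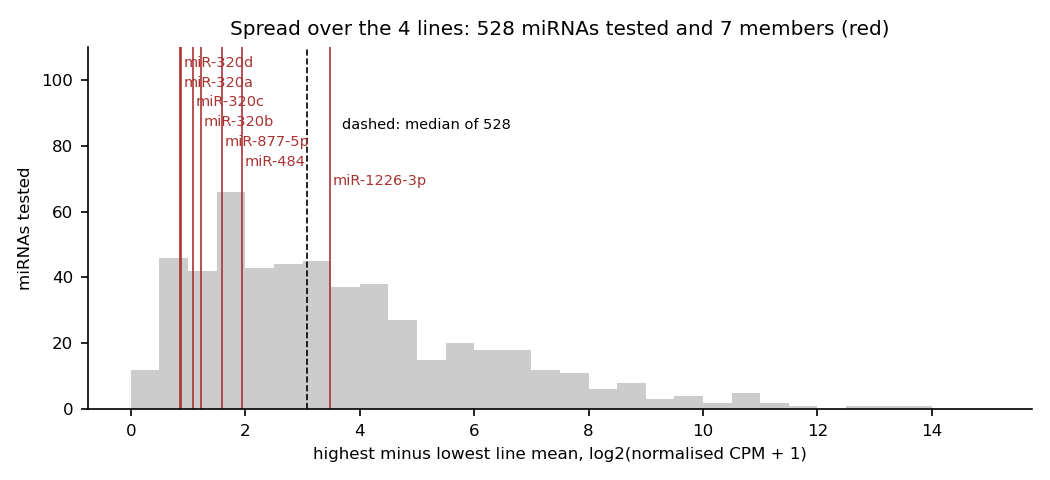
Number of miRNAs by the distance between their highest and lowest line mean on the log2(normalised CPM + 1) scale, for the 528 miRNAs tested (grey bars), with 7 members marked in red. MiR-1226-3p, at 3.48, lies above the median of 3.09 (dashed) and the other 6 below it.

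The other mirtron arms gave little signal. Of 18 listed arms, 9 had no read in any library and 6 had more than 3 reads in at least 1 library. Each of their hairpins for which RefSeq gave a place (those of miR-1224, miR-1225, miR-1227, miR-1228, miR-1229, miR-1236, miR-1237 and miR-1238) equalled an intron. The arms were listed as mirtrons, which are short introns, so this match was fixed by the choice. MiR-1228-3p of LRP1, miR-1229-3p of MGAT4B and miR-1237-3p of RPS6KA4 were tested. None was called by limma, edgeR or DESeq2 in any of the 6 pairs or over the 4 lines. Of all 528 miRNAs, limma called 68.2% over the 4 lines and 25.8% to 52.3% in the pairs. Over the 4 lines edgeR called 371 of the 528 and DESeq2 349. The 3 arms had only 0 to 48 reads per library. At an unadjusted p below 0.05 over the 4 lines, limma gave 2 of 3, edgeR 0 and DESeq2 0. The share of all miRNAs at that cut was not counted. MiR-1228-3p was counted 0 and 8 times in the ES-2 libraries, 17 and 48 times in the MV-3 libraries, 46 and 31 times in the Huh-7 libraries and 16 and 5 times in the A-549 libraries, so that its replicates lay far apart. MiR-1237-3p was highest in ES-2, at 11 and 13 reads, with 0 to 6 elsewhere.

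The miRNAs whose levels ran most like those of a member over the 8 libraries were found by Pearson's r of log2(normalised CPM + 1), as a description over points that share libraries and lines. For miR-484 they were miR-29a-5p (r = 0.995), miR-101-3p (0.993) and miR-100-5p (0.991), for miR-877-5p miR-26a-5p (0.982), miR-18a-5p (0.969) and miR-615-3p (0.944), and for miR-320a miR-4796-5p (0.992), miR-548ar-3p (0.989) and miR-135a-5p (0.977). On library CPM the values for miR-484 fell to between 0.746 and 0.896 and those for miR-320a to between 0.799 and 0.904, while those for miR-877-5p were 0.982 to 0.991. The 3 miRNAs like miR-320a had mean levels of 0 to 0.274 normalised CPM in ES-2 and MV-3 and were highest in Huh-7.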

How the data were processed

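Small RNA-seq libraries (NEXTflex kit) of 4 lines, 2 each, were analysed. Per the labels and the study's methods, the authors clipped reads with cutadapt 1.14, aligned them to GRCh38 (hg38) with Bowtie2 2.3.2, counted them on miRBase miRNAs with featureCounts 1.5.3 and normalised with edgeR 3.18.1 (TMM). The deposited signal is TMM-normalised CPM: 100% of values were whole multiples of 1 read (tolerance 0.001), which gave reads and library sizes. Strand and multi-mapping settings are not given in the sources used here.

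Entries of a name were summed. Differences were tested with limma 3.58.1 on log2(normalised CPM + 1) over 528 miRNAs passing filterByExpr, in all 8 libraries, with Benjamini-Hochberg adjustment and a threshold of 0.01. Within-library ratios were tested by exact permutation (threshold 0.05). On recovered reads, edgeR 4.0.16 called 371 miRNAs over the 4 lines (limma 360) and DESeq2 1.42.0 called 349. Scripts were tested on simulated data. Introns and transcript starts came from GENCODE 44, sequences from RefSeq.

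Named miRNAs were the 8 members, miR-320e, 18 other mirtron arms, miR-122-5p and, for miR-320a, miR-484 and miR-877-5p, the 3 miRNAs most like each. Members and lists were chosen with earlier results of these data known. Replicate numbers were not taken to pair the libraries in the main fits. Replicate differences correlated at -0.0500 to 0.232 between lines, the highest between ES-2 and Huh-7, and this check cannot exclude pairing. Fits with the replicate number as a block are given below.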

Additional observations from a re-analysis of the deposited data

How the results depend on the processing

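Of 532 values of single members under alternative settings, 476 kept direction and call, 17 lost and 24 gained a call and 15 turned; of 392 with single libraries left out, 345 kept both, 38 lost and 3 gained a call and 6 turned. The cause was not tested. The share of all miRNAs called was not counted for the settings whose member counts this section gives, so those counts have no background beside them. On library size alone, 7 members were called over the 4 lines, 4 in A-549 against MV-3 and 6 in A-549 against Huh-7. Log2 differences that turned there were miR-484 in MV-3 against ES-2 (0.24) and A-549 against Huh-7 (-0.30), miR-320a in A-549 against ES-2 (-0.20) and MV-3 (-0.73), miR-320b in A-549 against Huh-7 (-1.20), and miR-320c (-0.57) and miR-320d (-0.49) in A-549 against MV-3. MiR-320c and miR-320d in A-549 against Huh-7 turned to 0.17 and 0.18 with RLE factors, 0.18 and 0.20 with DESeq2 and 0.14 and 0.21 when each name kept its highest entry. MiR-877-5p in Huh-7 against ES-2 turned to -0.069 with RLE factors and -0.083 with DESeq2.

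With single libraries left out, the members called were 2 to 4 in Huh-7 against ES-2 (2 without Huh-7 replicate 2), 0 to 1 in MV-3 against ES-2 and 1 to 3 in A-549 against ES-2 (1 without either ES-2 library). Log2 differences that crossed 0 ran from -0.054 to 0.16 for miR-877-5p in Huh-7 against ES-2, from -0.017 to 0.46 for miR-320a in A-549 against MV-3, and in A-549 against Huh-7 from -0.30 to 0.17 for miR-320c and -0.15 to 0.072 for miR-320d. High-to-low factors ran from 3.57 to 4.60 for the miR-320 share and 1.03 to 1.04 for the miR-320a share. For the miR-877-5p share they were 1.17 to 1.17, and its exact permutation test passed 0.05 without either Huh-7 library. That share rests on 7 miR-877 reads in each A-549 library. When each name kept its highest entry, the miR-320a factor was 1.02. On normalised CPM the factors were 1.84 for the miR-320 share and 1.67 for the 8 members (exact permutation p = 0.0571).

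With the replicate block, 0 members were called in MV-3 against ES-2 by limma, as with only those lines in the fit. The block gave 2 in A-549 against ES-2, 2 in A-549 against Huh-7 and changed no other count of members. At an adjusted p below 0.05, limma called 6 in A-549 against ES-2. Depth limits miR-877-5p and miR-1226-3p in A-549, at 6 and 8 reads per library.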
